A study of Mus musculus with 24 samples.

Results

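Heart was compared with liver in the H3K27Ac profile of mouse organs, gene by gene, and the genes that differed in the same direction in frozen and in formalin-fixed tissue were described. The comparison used 4 of the 8 columns of the table, heart Frozen, heart FFPE, liver Frozen and liver FFPE, and took all genes with at least 1 read in the table, 26944 of 27179. No gene entered or left the comparison by its difference, so the directions and sizes over all genes are results of it. The largest differences, runs, pairs and families described below were picked by their values or after these were seen.

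H3K27Ac is histone H3 acetylated at lysine 27, a mark found at active promoters and enhancers. In working heart muscle it lies over the genes of the contractile apparatus, of electrical conduction and calcium cycling, and of fatty acid oxidation, and in hepatocytes over those of plasma proteins, lipoproteins, bile acids, urea, glucose output and drug metabolism. Organs also hold endothelial cells, fibroblasts and macrophages in different proportions, and in whole tissue fewer cells of a type and less of the mark per cell cannot be told apart.

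The study profiled brain, heart, kidney and liver by chromatin immunoprecipitation and sequencing in 2 kinds of tissue. Frozen tissue, flash frozen and then cored, was crosslinked for 30 min with formaldehyde at 1%, whereas FFPE tissue came from paraffin blocks after fixation in 10% formalin and gave up its chromatin during 20 min at 95 °C. PIXUL, an ultrasound instrument, sheared the chromatin, and the immunoprecipitation was run in microplates (Matrix ChIP). The labels list 2 H3K27Ac samples for each organ and preservation, but the table holds 1 column for each, with no replicate number. The sources used here give neither whether a column is 1 of those samples or their merged reads, nor the strain, the age and the animal behind it, nor which columns share an animal. The labels also name 2 immunoprecipitation runs and 2 library kits that cannot be matched to the columns. All of these could differ between heart and liver and cannot be told apart from the organ. The spread that p-values rest on is that of these 8 libraries, and part of it may be technical.

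Total counts were 4808023 and 5743071 in heart Frozen and FFPE, and 6164562 and 4404789 in liver Frozen and FFPE. The median gene had 87 to 105 counts. The 15 mitochondrially encoded genes took 36.0% of the counts in heart FFPE, against 5.45% in heart Frozen, 5.29% in liver Frozen and 12.7% in liver FFPE. Values are log2 CPM, the log2 of counts relative to the library size, after a scaling between libraries by the authors. Each difference is heart minus liver in log2 units, so 1 stands for 2-fold, and it is given with its standard error (SE) from a limma model with organ and preservation over all 8 libraries, 2 per organ. A gene was called where the Benjamini-Hochberg adjusted two-sided p was under 0.05.

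The sequences just upstream of 5 genes called in this comparison are shown because they carry short motifs known for liver or heart regulators, whose shares among the genes called with at least a 4-fold difference are given further on. Each run is the 160 bases before the start listed by RefSeq in GRCm38.p6, the assembly of mm10, 5′ to 3′ on the gene's strand. Capitals mark matches to the motifs searched, on either strand except for the TATA box. Alb encodes serum albumin, at chr5:90460710-90460869 on the plus strand, and Fga the alpha chain of fibrinogen, at chr3:83025993-83026152 on the plus strand. Both hold a match to the HNF1 motif, 32 bases before the start in Alb and 46 in Fga, and a match to the C/EBP motif, 94 and 135 bases before it.
Alb: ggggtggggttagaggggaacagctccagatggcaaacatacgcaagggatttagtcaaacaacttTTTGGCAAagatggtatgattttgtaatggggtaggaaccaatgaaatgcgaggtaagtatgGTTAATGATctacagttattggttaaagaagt
Fga: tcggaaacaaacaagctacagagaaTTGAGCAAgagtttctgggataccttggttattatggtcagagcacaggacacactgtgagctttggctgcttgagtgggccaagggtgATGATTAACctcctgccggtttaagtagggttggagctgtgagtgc
Cyp8b1 encodes the sterol 12-alpha-hydroxylase of bile acid synthesis, at chr9:121916306-121916465 on the minus strand. An HNF4 match begins 67 bases and a TATA match 31 bases before its start.
Cyp8b1: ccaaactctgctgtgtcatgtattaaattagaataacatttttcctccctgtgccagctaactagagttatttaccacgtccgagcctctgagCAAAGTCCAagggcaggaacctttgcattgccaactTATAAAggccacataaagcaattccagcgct
Actc1 encodes the alpha-actin of heart muscle, at chr2:114052876-114053035 on the minus strand. It holds a CArG box, the kind of element bound by serum response factor, 47 bases before the start.
Actc1: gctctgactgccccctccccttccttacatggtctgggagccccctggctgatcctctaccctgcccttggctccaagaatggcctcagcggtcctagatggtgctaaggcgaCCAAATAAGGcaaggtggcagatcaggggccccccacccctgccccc
Nppb encodes B-type natriuretic peptide, at chr4:147985740-147985899 on the plus strand. Its window holds an MCAT match that begins 105 bases before the start and adjoins an E-box, a GATA match at 84 bases and a TATA match at 31 bases.
Nppb: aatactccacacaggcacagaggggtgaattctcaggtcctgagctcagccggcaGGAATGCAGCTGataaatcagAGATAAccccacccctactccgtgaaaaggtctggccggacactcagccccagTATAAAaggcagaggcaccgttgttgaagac

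Of the 26944 genes, 4505 were called (16.7%), 2284 higher in heart (8.48%) and 2221 higher in liver (8.24%). Nearly all moved the same way in both preservations: 2283 of the 2284 were higher in heart in Frozen and in FFPE, and 2218 of the 2221 were higher in liver in both. The 4 exceptions were Prtg, Olfr513, Methig1 and a gene without a symbol, chosen here after their values were seen. A call rests on the mean of the Frozen and the FFPE difference, so a shared sign is favoured in advance among called genes. Over all genes tested, called or not, 18195 had the same sign in both preservations (67.5%). Both heart libraries were above both liver libraries for 2241 of the genes called in heart and both below for 2183 of those called in liver. Over all genes tested, called or not, the libraries of the organs did not overlap for 6179 with heart higher (22.9%) and 5502 with liver higher (20.4%).

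Large differences were more often toward liver. At least 2-fold were 1681 of the genes called in heart and 1815 of those called in liver, at least 4-fold 332 and 659, and at least 8-fold 65 and 226. The split of the calls depended on the scaling. With plain total counts in place of the authors' factors the median gene stood at -0.20 in place of 0.01, and 1377 genes were called in heart against 2714 in liver. Leaving out heart Frozen left 2323 calls, 933 of them in heart, and leaving out liver Frozen left 2854.

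Most genes that reached 2-fold in both preservations did so in 1 direction. Among 21063 genes with at least 40 counts over each pair of libraries, 1107 were at least 2-fold higher in heart in both preservations (5.26%) and 1237 at least 2-fold higher in liver in both (5.87%). Another 1339 reached that size toward heart in Frozen only and 503 in FFPE only. Toward liver these counts were 1067 and 424. In opposite directions stood 15 genes, 11 higher in heart in Frozen and in liver in FFPE and 4 the other way round. Across these genes, which are not independent replicates, the difference in Frozen and that in FFPE had a Pearson r of 0.766 and a Spearman rho of 0.644.

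**Figure D1:**
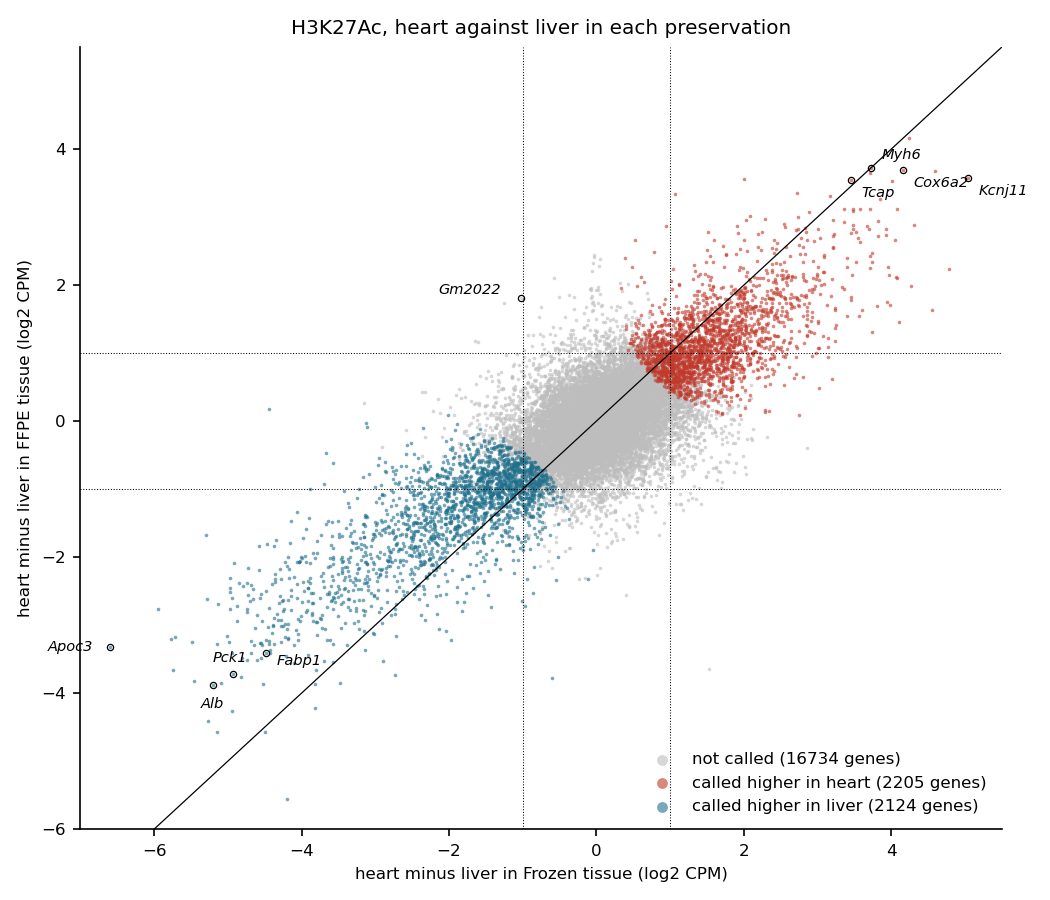
Heart minus liver (log2 CPM) in Frozen tissue on the x axis and in FFPE tissue on the y axis, 1 point per gene for the 21063 genes with at least 40 counts over each pair of libraries, with genes called higher in heart (2205) in red, in liver (2124) in blue and the rest (16734) in grey, dotted lines at 2-fold and a line of equality. Nearly all called genes have the same sign on both axes, which calling on the mean of both favours. Over the genes plotted the spread is wider in Frozen (SD 1.03) than in FFPE (SD 0.785).

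As deposited, differences were larger in Frozen than in FFPE. For the genes called in heart the median difference was 1.47 in Frozen and 1.10 in FFPE, and for those called in liver it was -1.75 and -1.23. The spread of log2 CPM over genes moved with this: its SD was 2.40 in heart Frozen and 2.39 in liver Frozen, against 2.09 in heart FFPE and 2.05 in liver FFPE. Its part in the difference over the called genes, and that of the mitochondrial share, was not tested. With the spread of every library set equal, the order turned for genes of the heart lists, with medians of 1.14 in Frozen and 1.28 in FFPE. It held for genes of the liver lists, with -2.21 and -1.97.

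The 15 largest differences toward heart belonged to heart muscle, to endothelium and to genes without a described role. They were chosen among called genes whose heart and liver libraries did not overlap, so that separation follows from the choice. Kcnj11, the pore subunit of the ATP-sensitive potassium channel, at chr7:46097123-46100952, had 8.11 in heart Frozen and 7.22 in heart FFPE against 3.07 in liver Frozen and 3.65 in liver FFPE. Both heart libraries were far above both liver libraries, 19.8-fold (4.31 ± 0.30, adjusted p = 3.39e-12). Lrrc10, a leucine-rich repeat protein of the cardiac Z-disc, at chr10:117045341-117046768, had 6.51 and 5.98 in heart against 1.93 and 2.30 in liver. From here on the Frozen value of an organ comes first and the FFPE value second. It was 17.6-fold higher in heart (4.13 ± 0.35, adjusted p = 9.2e-11). Cox6a2, the muscle form of a subunit of cytochrome oxidase, at chr7:128205435-128206366, had 5.94 and 5.45 in heart and 1.78 and 1.76 in liver. The heart values exceeded the liver values 15.2-fold (3.92 ± 0.46, adjusted p = 6.24e-08). Hspb7, a small heat shock protein of heart muscle, followed with 3.77 ± 0.29, and Myh6, Kcna5, Actc1, Aplnr, Tcap and Mb lay between 3.34 and 3.72. Kcna5 is a voltage-gated potassium channel, Aplnr the apelin receptor, Tcap the titin cap protein and Mb myoglobin. The remaining 5 were AI839979, A730085E03Rik, Gm15179, A230009B12Rik and 1700092K14Rik, between 3.35 and 3.60. Gm15179, at chr1:75368210-75375015, overlaps Des at chr1:75360292-75368579, so part of its reads may be those of Des.

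The 15 largest differences toward liver were genes of plasma proteins and of retinoid, drug, bile acid and amino acid metabolism. These too were chosen among called genes without overlap of the libraries. Apoc3, an apolipoprotein of triglyceride-rich lipoproteins, at chr9:46233050-46235636, had 0.51 and 2.32 in heart and 7.11 and 5.64 in liver. It was 31.1-fold higher in liver (-4.96 ± 0.49, adjusted p = 2.16e-09). Cyp2d9, a cytochrome P450, at chr15:82452377-82456827, had 2.54 and 2.45 in heart and 7.68 and 7.02 in liver. The liver values were 29-fold those of heart (-4.86 ± 0.31, adjusted p = 5.08e-13). Rdh7, a retinol dehydrogenase, at chr10:127884027-127889247, had 3.00 and 2.92 in heart and 8.27 and 7.33 in liver, a difference of -4.84 ± 0.31. Crp, C-reactive protein, at chr1:172698056-172699966, had 2.02 and 2.92 in heart against 7.77 and 6.57 in liver. It was 26-fold higher in liver (-4.70 ± 0.39, adjusted p = 8.61e-11), with both liver libraries far above both heart libraries. Cyp8b1, Orm1 (orosomucoid), Alb, Tat (tyrosine aminotransferase), Mbl1 (a mannose-binding lectin), Fgg (fibrinogen gamma chain) and Pck1 (the cytosolic phosphoenolpyruvate carboxykinase of gluconeogenesis) ranged from -4.65 to -4.33. Ugt1a5 (-4.88), Acnat2, Rdh16f2 and Gm8883 completed the 15. Ugt1a5, a glucuronosyltransferase, is a first exon of a gene that shares its 3′ part with the other Ugt1a forms, so its value is not separable from theirs.

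**Figure D2:**
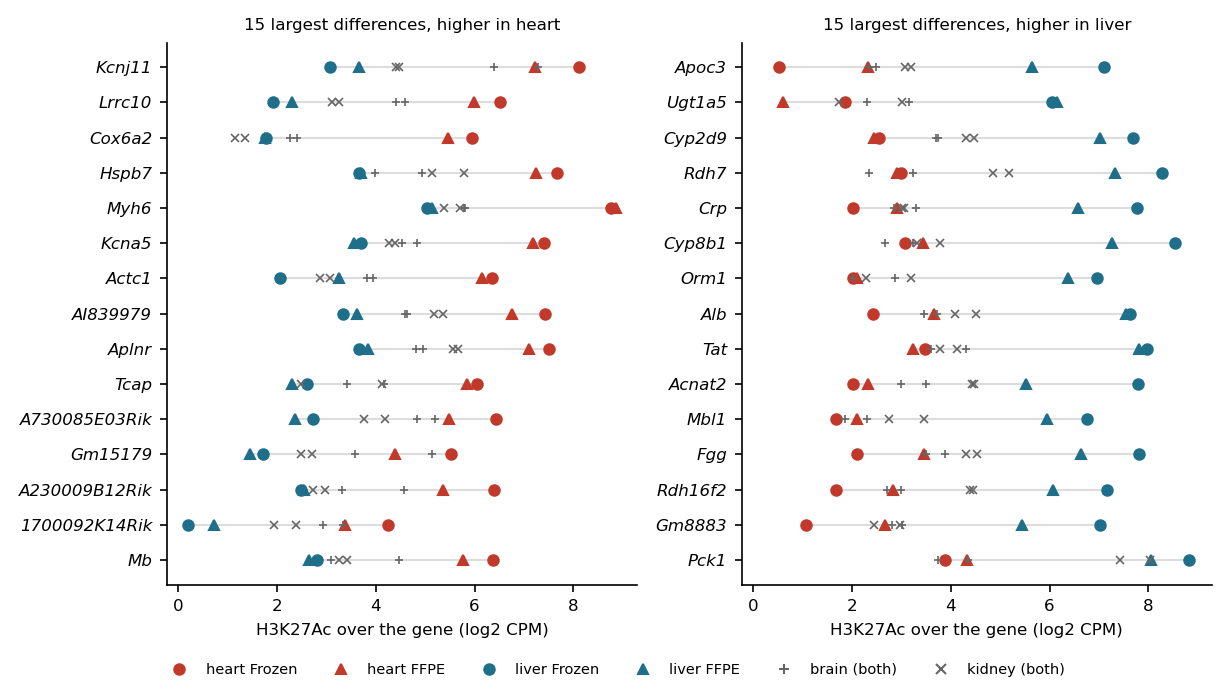
The log2 CPM of the 15 genes with the largest difference toward heart (left) and the 15 toward liver (right), with 1 symbol per library: red for heart, blue for liver, circles for Frozen, triangles for FFPE, and crosses for brain and kidney. The genes were chosen among those without overlap of heart and liver libraries, so the red symbols stand clear of the blue ones in each row by choice. Differences of the means run from 4.31 for Kcnj11 to 3.34 for Mb on the left. On the right they run from -4.96 for Apoc3 to -4.33 for Pck1.

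Most genes of the contractile apparatus rose in heart. Of 26 sarcomere genes tested, 20 were called in heart, 0 in liver and 6 in neither, and both heart libraries were above all the other 6 libraries, brain and kidney included, for 22 of the 26 (8.94% of all genes). Their median difference was 2.44, against 0.01 over all genes, and their median value was 6.19 and 5.85 in heart against 4.03 and 4.16 in liver. Myh6, the alpha myosin heavy chain and main form of the adult mouse ventricle, at chr14:54941921-54968017, had 8.75 and 8.86 in heart and 5.03 and 5.13 in liver. It was 13.2-fold higher in heart (3.72 ± 0.25, adjusted p = 9.22e-13). Its neighbour Myh7, the beta form, at chr14:54970684-54994626, had 8.00 and 7.76 in heart and 4.45 and 5.07 in liver, 8.69-fold higher in heart (3.12 ± 0.26). Actc1 had 6.36 and 6.14 in heart and 2.05 and 3.25 in liver, 12.1-fold higher in heart (3.60 ± 0.37, adjusted p = 4.23e-09). Both heart libraries stood clear of both liver libraries in each of these 3 genes.

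The thin filament regulators moved with the myosins. Tnni3, cardiac troponin I, had 6.32 and 5.72 in heart and 2.87 and 2.96 in liver (3.11 ± 0.37), and Tnnt2, cardiac troponin T, differed by 2.48 ± 0.33. Titin, Ttn, the giant spring of the sarcomere, had 10.51 and 10.74 in heart and 8.50 and 8.87 in liver (1.94 ± 0.39, adjusted p = 0.000295). Myl2, the regulatory light chain of the ventricle, was called (2.85 ± 0.43), while Myl7, a light chain of the atrium, had 2.64 and 4.47 in heart and 2.11 and 2.96 in liver and was not (1.02, adjusted p = 0.162). Myl4, the other atrial light chain, was not called either (0.82, adjusted p = 0.126), and nor were Csrp3 (0.36), Nexn (0.34), Myom1 (-0.01) and Nebl (-0.07), which encode proteins of the Z-disc, the M-band or the thin filament.

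The cardiac hormones differed as well. Of 6 genes of the natriuretic peptide system 4 were called in heart and 0 in liver, with a median of 0.78. Nppb had 5.51 and 4.89 in heart and 1.54 and 2.74 in liver (3.06 ± 0.48, adjusted p = 8.75e-06). Nppa, atrial natriuretic peptide, next to it at chr4:148000722-148002074, had 3.08 and 5.45 in heart and 0.89 and 2.69 in liver (2.47 ± 0.49, adjusted p = 0.00025). The FFPE library was the higher of the pair in both organs for Nppa, and the heart and liver libraries did not overlap for either gene. Their receptors Npr1 (0.74) and Npr3 (0.77) were called in heart too. Npr2 (0.78) and its ligand Nppc (0.29) were not called. The count of 4 fell to 2 without heart Frozen, without liver Frozen, without the kidney libraries, with plain total counts, without the preservation term and without the trend in the prior variance.

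Genes of excitation and calcium cycling rose in part. Of 24, 15 were called in heart and 0 in liver (median 1.21). Pln, phospholamban, the brake on the calcium pump, had 7.35 and 6.99 in heart and 5.10 and 5.19 in liver (2.02 ± 0.26), and Jph2, which ties the sarcoplasmic reticulum to the cell membrane, differed by 2.96 ± 0.27. The heart libraries were the higher in each. Ryr2, the calcium release channel, had 7.83 and 8.06 in heart and 6.22 and 6.44 in liver (1.61 ± 0.27). The pump itself, Atp2a2, had 8.30 and 8.12 in heart and 7.98 and 7.33 in liver and was not called (0.56, adjusted p = 0.214). For Slc8a1, the sodium-calcium exchanger, the heart values of 7.46 and 7.75 lay within the liver values of 7.28 and 8.22 (-0.14, adjusted p = 0.825). Gja1, the gap junction protein connexin 43, had 6.26 and 6.28 in heart and 3.62 and 4.21 in liver (2.35 ± 0.30). Kcnip2, Asph, Gja5, Corin, Kcnq1, Kcnd2 and Fxyd1 were not called, with differences from 1.13 to -0.50.

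Most transcription factors of the heart rose. Of 19, 14 were called in heart and 0 in liver, with a median of 1.07, and the 14 fell to 8 without the trend in the prior variance or without heart Frozen. Hand2, a basic helix-loop-helix factor of heart development, had 6.93 and 6.72 in heart and 3.85 and 4.53 in liver (2.64 ± 0.32, adjusted p = 1.16e-07). Nkx2-5, a homeobox factor of the heart field, at chr17:26838664-26844988, had 5.48 and 5.16 in heart and 3.04 and 2.54 in liver (2.53 ± 0.38, adjusted p = 4.05e-06). Tbx5, a T-box factor, differed by 1.69 ± 0.29 and Irx4, a ventricular homeobox factor, by 2.43. Gata4, which liver also uses, had 6.85 and 6.64 in heart and 5.97 and 5.61 in liver, with no overlap (0.96 ± 0.27, adjusted p = 0.00957). The 5 not called were Hey2 (0.53), Hand1 (0.44), Esrrg (0.26), Hopx (-0.33) and Smyd1 (-0.48).

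Most genes of muscle energy supply rose in heart. Of 25, 17 were called in heart, 1 in liver and 7 in neither (median 1.82). Slc25a4, the ADP/ATP carrier of muscle mitochondria, had 6.69 and 6.52 in heart and 3.21 and 3.41 in liver (3.29 ± 0.28, adjusted p = 9.44e-11). Fabp3, the fatty acid binding protein of heart, had 5.70 and 5.02 in heart and 1.63 and 2.92 in liver (3.09 ± 0.38), and Cd36, the fatty acid transporter, 7.73 and 7.55 against 5.29 and 5.59 (2.20 ± 0.27). The heart libraries were the higher in these 3. Mb had 6.38 and 5.76 in heart and 2.80 and 2.64 in liver (3.34 ± 0.38, adjusted p = 3.8e-08). Ckm, muscle creatine kinase, differed by 1.84 ± 0.41. The gene called in liver was Acsl1, a long-chain acyl-CoA synthetase, with 6.18 and 5.96 in heart and 6.86 and 6.79 in liver (-0.76 ± 0.25, adjusted p = 0.0328). Genes of oxidation that both organs use were among those not called, such as Acadvl (-0.05) and Hadha (0.15), enzymes of mitochondrial beta-oxidation.

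Genes of the intercalated disc, which joins heart muscle cells end to end, were mixed. Of 14, 5 were called in heart and 2 in liver (median 0.56), and the 5 fell to 2 without the trend in the prior variance and to 3 without heart Frozen. Over all genes tested 8.48% were called in heart and 8.24% in liver, so the 2 of 14 in liver are not far from that share. Des, the muscle intermediate filament desmin, had 6.60 and 6.19 in heart and 4.11 and 3.88 in liver (2.40 ± 0.31). Cdh13 (1.36), Nrap (1.21), Jup (1.02) and Tmem65 (1.00) were the others called in heart, Jup being plakoglobin, a linker of junctions to filaments. Xirp1, an actin-binding protein of the disc, went the other way, with 6.63 and 6.81 in heart and 8.14 and 7.78 in liver (-1.24 ± 0.26, adjusted p = 0.000436). So did Dsc2, a desmosomal cadherin (-1.0 ± 0.28, adjusted p = 0.00833). The main desmosomal proteins Pkp2 (0.08), Dsp (-0.13) and Dsg2 (-0.67) were not called, and nor was the cadherin Cdh2 (-0.62).

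**Figure D3:**
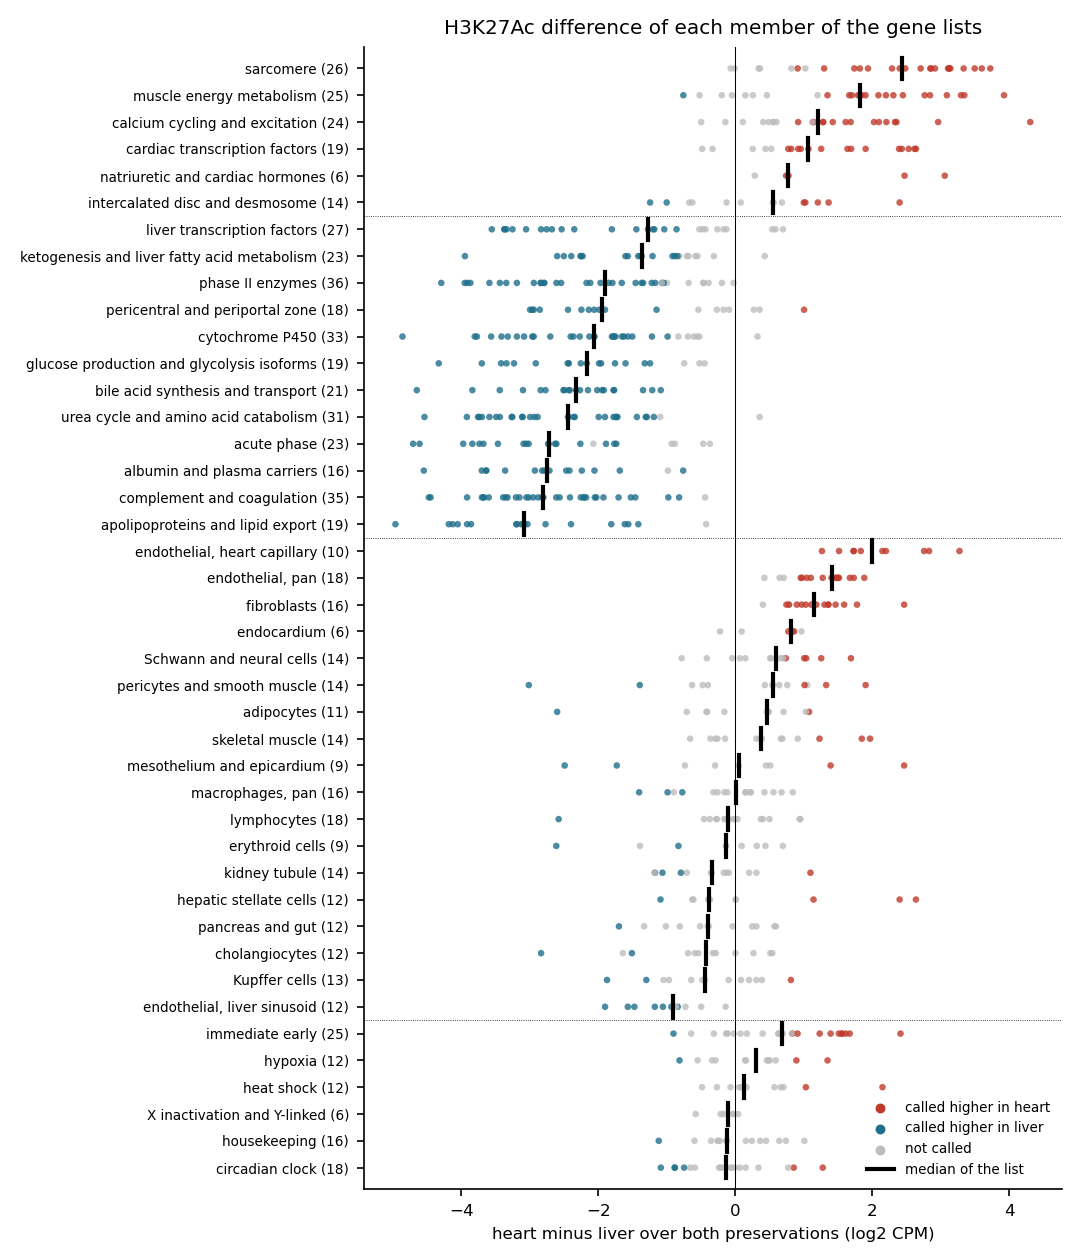
Heart minus liver over both preservations (log2 CPM) of each tested member of the gene lists, 1 row per list with its number of members, called members in red (heart) or blue (liver), members not called in grey and the median as a black bar. The heart lists, on top, have medians from 0.56 to 2.44, the liver lists below them from -1.27 to -3.09, and the lists of other cell types and general functions follow, the mitochondrially encoded genes not being drawn.

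The plasma proteins made by hepatocytes rose in liver almost without exception. Of 16 genes of the albumin family, plasma carriers and the like, 15 were called in liver and 0 in heart (median -2.75). Alb, at chr5:90460870-90476602, had 2.43 and 3.66 in heart and 7.63 and 7.55 in liver. It was 23.3-fold higher in liver (-4.55 ± 0.33, adjusted p = 4.5e-12), and the liver libraries were alike while the heart FFPE library lay above heart Frozen. Of 35 complement and coagulation genes 34 were called in liver and 0 in heart (median -2.81), and both liver libraries were above the other 6 for 34 (9.6% of all genes). The 3 fibrinogen chains lie side by side on chromosome 3. Fga had 2.69 and 4.13 in heart and 7.82 and 6.83 in liver (-3.91 ± 0.35). Fgb, at chr3:83042246-83049863, had 2.59 and 1.85 in heart and 6.08 and 5.69 in liver (-3.67 ± 0.41), and Fgg, at chr3:83007724-83015056, 2.10 and 3.46 against 7.82 and 6.64 (-4.45 ± 0.38). The liver libraries were the higher for each chain. F10, coagulation factor X, differed by -3.70 ± 0.31. The members not called were Serpina7, thyroxine-binding globulin (-0.98), and C6, a component of the complement pore (-0.44).

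The acute phase proteins, made in liver during inflammation, followed. Of 23, 18 were called in liver and 0 in heart (median -2.72). Orm1 had 2.02 and 2.10 in heart and 6.97 and 6.37 in liver (-4.61 ± 0.40, adjusted p = 1.35e-10). Hamp, the iron hormone hepcidin, had 0.90 and 2.51 in heart and 4.93 and 4.58 in liver (-3.05 ± 0.49, adjusted p = 1.53e-05). Heart and liver libraries did not overlap for either. Lcn2 (-0.37), Orm2 (-0.47), Saa3 (-0.88), Saa2 (-0.93) and Hamp2 (-2.07, with 0 counts in at least 1 library) were not called.

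Apolipoproteins and lipid export had the lowest median of the liver groups, -3.09, with 18 of 19 called in liver and 0 in heart. Apob, the structural protein of very low density lipoprotein, had 5.37 and 6.0 in heart and 8.52 and 8.38 in liver (-2.77 ± 0.26, adjusted p = 9.23e-10). Apoa1, the main protein of high density lipoprotein, had 4.33 and 3.79 in heart and 7.84 and 6.66 in liver (-3.19 ± 0.31). The heart and liver libraries were well apart in both. The gene not called was Mttp, which loads lipid onto Apob, with 6.65 and 6.32 in heart and 7.11 and 6.71 in liver (-0.42, adjusted p = 0.319), although its libraries did not overlap.

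Of 27 transcription factors of the hepatocyte 18 were called in liver and 0 in heart (median -1.27). Hnf4a, a nuclear receptor, at chr2:163506811-163572907, had 4.28 and 4.49 in heart and 7.74 and 7.53 in liver (-3.25 ± 0.26, adjusted p = 4.32e-11). The forkhead factor Foxa1 had 3.55 and 4.39 in heart and 8.24 and 6.81 in liver (-3.55 ± 0.34), and Foxa2 3.19 and 3.99 against 7.25 and 6.60 (-3.34 ± 0.33). The liver libraries stood above the heart libraries in these 3. The homeobox factor Onecut1 differed by -3.05. Within the C/EBP family Cebpa was called, with 6.80 and 6.14 in heart and 8.45 and 7.37 in liver (-1.44 ± 0.26, adjusted p = 6.82e-05). Cebpb had 7.40 and 6.58 in heart and 7.48 and 6.75 in liver and was not called (-0.13, adjusted p = 0.833), with the Frozen library the higher in both organs. The nuclear receptor Ppara (-0.48), a regulator of fatty acid oxidation that heart also uses, was not called.

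Each of 21 genes of bile acid synthesis and transport was called in liver (median -2.32). Cyp8b1, at chr9:121914356-121916305, had 3.08 and 3.43 in heart and 8.54 and 7.26 in liver, 25.1-fold higher in liver (-4.65 ± 0.35, adjusted p = 1.37e-11). Cyp7a1, the rate-limiting enzyme of bile acid synthesis, had 4.53 and 4.55 in heart and 6.06 and 6.90 in liver (-1.94 ± 0.33, adjusted p = 2.78e-05). Slc10a1, the bile acid importer NTCP, had 4.21 and 5.09 in heart and 7.36 and 6.80 in liver (-2.43 ± 0.31). The 3 genes were higher in both liver libraries.

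Of 31 genes of the urea cycle and amino acid breakdown 29 were called in liver and 0 in heart (median -2.44). Cps1, the first enzyme of the urea cycle, at chr1:67122426-67231267, had 4.37 and 4.93 in heart and 7.33 and 7.74 in liver (-2.88 ± 0.26, adjusted p = 5.53e-10). Tat, which breaks down tyrosine, had 3.47 and 3.23 in heart and 7.97 and 7.81 in liver (-4.54 ± 0.30). The liver libraries of both genes stood far above the heart libraries. Otc, the X-linked ornithine transcarbamylase, had 3.08 and 3.20 in heart and 4.59 and 4.56 in liver (-1.44, adjusted p = 0.0114). The 2 not called were Glul and Sdsl (-1.09).

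Of 19 genes of glucose and glycogen metabolism in liver, 16 were called in liver and 0 in heart (median -2.17). Pck1, at chr2:173153073-173159274, had 3.89 and 4.33 in heart and 8.82 and 8.05 in liver, 20.1-fold higher in liver (-4.33 ± 0.27, adjusted p = 4.95e-13). Its kidney values, 8.03 and 7.43, were near those of liver, and kidney also makes glucose. G6pc, the catalytic subunit of glucose-6-phosphatase, had 3.58 and 3.55 in heart and 6.97 and 6.84 in liver (-3.34 ± 0.27, adjusted p = 5.39e-11).

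Of 23 genes of ketone body formation and hepatic lipid metabolism 16 were called in liver and 0 in heart (median -1.37), a count that fell to 9 without the trend in the prior variance. Fabp1, the fatty acid binding protein of hepatocytes, had 1.46 and 1.54 in heart and 5.94 and 4.94 in liver (-3.94 ± 0.50, adjusted p = 2.11e-07). Cpt1a, which admits fatty acids to mitochondria, had 5.77 and 5.78 in heart and 5.98 and 6.20 in liver (-0.31, adjusted p = 0.504). The organs stood far apart for Fabp1 and close together, without overlap, for Cpt1a. Acaca (-0.58), Acacb (0.43), Elovl6 (-0.68), Thrsp (-0.55), Acot1 (-0.71) and Ehhadh (-0.82) were not called either.

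Drug metabolism was called in liver through both of its phases. Of 33 cytochromes P450 27 were called in liver and 0 in heart (median -2.06), and of 36 phase II enzymes 28 and 0 (median -1.91). Cyp3a11, a main drug oxidase, had 2.74 and 3.93 in heart and 6.89 and 6.42 in liver (-3.32 ± 0.34), and Cyp2e1, which oxidises ethanol, 3.15 and 3.16 against 6.07 and 6.13 (-2.94 ± 0.33). The liver libraries were the higher in each. Genes that mark the zones of the liver lobule were called from both ends of it: Cyp2f2, a periportal gene, differed by -2.96 ± 0.33 and Cyp2e1, a pericentral gene, as given. Of 18 zone genes 11 were called in liver and 1 in heart, Oat, ornithine aminotransferase, with 5.90 and 5.53 in heart and 4.48 and 4.93 in liver (1.00 ± 0.28, adjusted p = 0.00976). Glul, glutamine synthetase of the pericentral cells, had 6.16 and 5.77 in heart and 5.57 and 5.66 in liver (0.36, adjusted p = 0.445).

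Over the 6 heart lists together, with genes on more than 1 list counted once, 74 of 113 genes were called in heart, 3 in liver and 36 in neither (median 1.30). Over the 12 liver lists, 245 of 294 were called in liver, 1 in heart and 48 in neither (median -2.26). Where a list had 0 members called toward the other organ by limma, it had 0 there at an unadjusted p under 0.05 too, except for 2 liver transcription factors toward heart, Tbx3 (0.70) and Cebpd (0.54). The median of the heart genes was 1.5 in Frozen and 1.24 in FFPE, and that of the liver genes -2.65 and -1.90. With the spread of every library set equal these became 1.14 and 1.28 for heart genes, which turned their order, and -2.21 and -1.97 for liver genes, which kept theirs. As deposited, the median was the smaller in FFPE for all 12 liver lists and for 5 of the 6 heart lists.

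Pairs of genes that encode a heart or muscle form and a liver or general form of the same or a related enzyme or carrier give a comparison with similar functions. The choice of the 18 pairs followed a look at the table, so they describe it only. The heart or muscle form was called in heart in 15 pairs, the liver or general form in liver in 8, both in 7 and neither in 2. None was called the other way. Slc2a4, the insulin-responsive glucose transporter GLUT4, differed by 2.45 and Slc2a2, the liver transporter GLUT2, by -3.42. Fabp3 against Fabp1 gave 3.09 and -3.94, Pygm against Pygl, the glycogen phosphorylases, 2.09 and -1.60, and Pkm against Pklr, the pyruvate kinases, 1.56 and -1.96. In other pairs only the heart or muscle form was called. Cox6a2 differed by 3.92 and its general form Cox6a1 by 0.35, Slc25a4 by 3.29 and Slc25a5 by -0.09, and Pgam2, the muscle phosphoglycerate mutase, by 2.84 and Pgam1 by 0.17. Gys2, the liver glycogen synthase, was called (-2.91) while the muscle form Gys1 was not (-0.23).

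**Figure D4:**
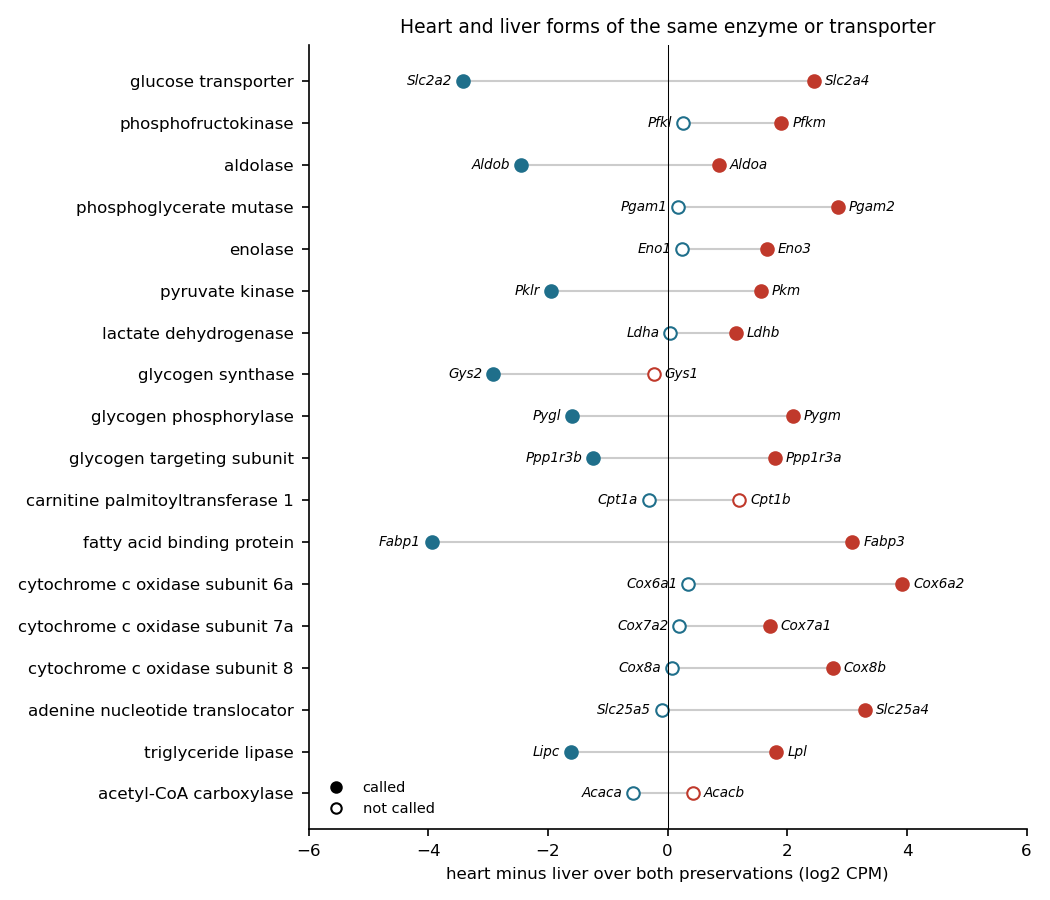
Heart minus liver over both preservations (log2 CPM) of the heart or muscle form (red) and of the liver or general form (blue) in 18 pairs of genes, with filled points for called genes and open points for the others. The heart or muscle form lies right of its partner in each pair, most widely for Fabp3 and Fabp1 (3.09 and -3.94).

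Markers of some other cell types moved with the organs too. Of 18 genes of endothelium in general 15 were called in heart and 0 in liver (median 1.41), and of 10 genes of heart capillaries 10 were called in heart (median 1.99). Tcf15, a factor of heart capillary endothelium, had 6.0 and 5.56 in heart and 2.33 and 2.69 in liver (3.27 ± 0.36), and Kdr, the main receptor of vascular endothelial growth factor, 8.41 and 8.32 against 6.62 and 6.76 (1.67 ± 0.26). The heart libraries were clear of the liver libraries in both. The endothelium of liver sinusoids went the other way, with 7 of 12 called in liver and 0 in heart (median -0.91). Stab2, its scavenger receptor, had 5.60 and 5.80 in heart and 7.42 and 7.11 in liver (-1.57 ± 0.25, adjusted p = 1.43e-05), and Dnase1l3 4.16 and 4.64 against 6.46 and 6.15 (-1.90 ± 0.29). The 7 fell to 4 without heart FFPE, to 3 without heart Frozen or without the trend in the prior variance, and to 2 without liver Frozen.

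Fibroblast genes stood higher in heart, 14 of 16 called there and 0 in liver (median 1.15). Dcn, the matrix proteoglycan decorin, had 5.80 and 5.66 in heart and 4.65 and 4.58 in liver (1.11 ± 0.28). The 14 fell to 3 without heart Frozen, 6 without the trend in the prior variance, 7 without liver Frozen and 8 with plain total counts. Summed over the list, fibroblast genes had 4228 and 3329 counts in heart and 1917 and 2045 in liver. The sums were 9185 and 8305 against 4324 and 3838 for general endothelium, 3763 and 3068 against 1021 and 923 for heart capillaries, and 1987 and 1853 against 5230 and 3551 for liver sinusoids. No member of these 4 lists had 0 counts in a heart or liver library. Their part in the calls over all genes was not tested.

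Lists of other cell types had fewer members called. Over all genes tested 8.48% were called in heart and 8.24% in liver. A count of 1 in a list of 11 to 14 genes is thus near the share over all genes. Of 16 general macrophage genes 3 were called in liver and 0 in heart, a count of 0 or 1 under some alternatives, and their median changed sign between scalings (0.02 as deposited). Of 13 genes of Kupffer cells, the macrophages of liver, 2 were called in liver and 1 in heart (median -0.44). C6 of this list is also a complement gene. Clec4f, a Kupffer cell lectin, had 3.22 and 3.79 in heart and 4.83 and 4.78 in liver (-1.30 ± 0.36, adjusted p = 0.00937). Lymphocyte genes had 1 of 18 called, Zap70, a kinase of T cell receptor signalling, with 3.11 and 3.79 in heart and 6.61 and 5.45 in liver (-2.58 ± 0.35, adjusted p = 8.16e-07). Stellate cell genes had 3 of 12 called in heart, of which Hand2 and Des are also heart muscle genes, and 1 in liver. Lrat, which stores the retinol of stellate cells, was not called (-0.39). Pericyte and smooth muscle genes had 3 of 14 called in heart and 2 in liver, among them Pdgfrb (1.33), a growth factor receptor, in heart and Tagln (-1.39), an actin-binding protein, in liver. Genes of cholangiocytes had 0 of 12 in heart and 2 in liver, of adipocytes 1 of 11 and 1, of Schwann and neural cells 5 of 14 and 0, with Dbh, the enzyme of noradrenaline synthesis, at 1.69, of endocardium 3 of 6 and 0, of mesothelium 2 of 9 and 2, and of erythroid cells 0 of 9 and 2. Genes particular to skeletal muscle had 3 of 14 in heart and 0 in liver, those of kidney tubule 1 of 14 and 3, and those of pancreas and gut 0 of 12 and 1. Without the trend in the prior variance the heart counts fell to 0 for endocardium and to 1 for Schwann and neural cells and for pericytes. The liver count for kidney tubule fell to 0 there. With the heart and liver libraries alone the heart count for pericytes rose to 4.

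Of 16 housekeeping genes 0 were called in heart and 1 in liver, Eef1a1, a translation elongation factor, with 5.69 and 5.60 in heart and 6.83 and 6.69 in liver (-1.12 ± 0.26, adjusted p = 0.00184). Immediate early genes, which many stimuli induce within minutes, had 10 of 25 called in heart and 1 in liver (median 0.69), and the 10 fell to 6 with plain total counts or without liver FFPE. Klf4, a zinc finger factor, had 7.79 and 7.56 in heart and 4.90 and 5.62 in liver (2.41 ± 0.27), while Egr1 had 6.02 and 6.58 against 7.62 and 6.78 (-0.90, adjusted p = 0.0284). Heat shock genes had 2 of 12 in heart and 0 in liver, hypoxia genes 2 of 12 and 1, and circadian genes 2 of 18 and 4, the last falling to 0 under some alternatives. The shares over all genes tested were 8.48% in heart and 8.24% in liver. None of 15 mitochondrially encoded genes was called by limma, 1 had an unadjusted p under 0.05, and their median was -0.04 in Frozen and 1.92 in FFPE, beside the mitochondrial shares of counts given above. The 4 Y-linked genes and Xist each had 81 to 331 reads in every heart and liver library, and 0 of 6 sex-linked genes listed were called by limma, or had an unadjusted p under 0.05.

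**Figure D5:**
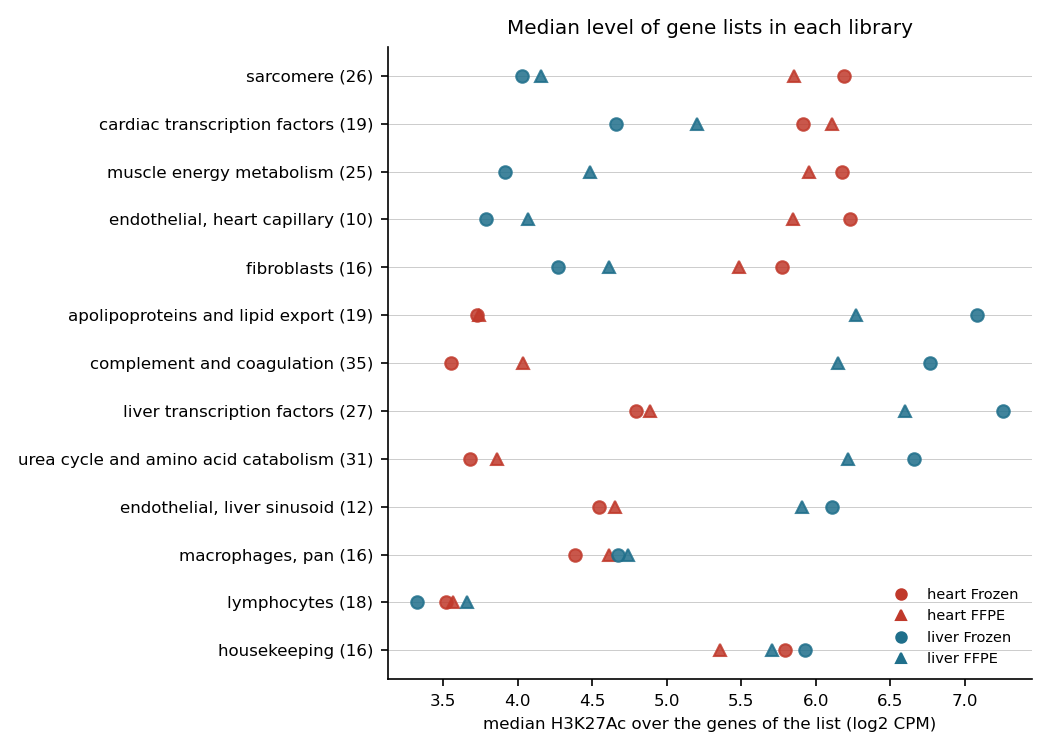
Median log2 CPM over the genes of 13 lists in each of the 4 libraries, with red for heart, blue for liver, circles for Frozen and triangles for FFPE, and the number of genes in brackets. The heart libraries lie right of the liver libraries for sarcomere genes (6.19 and 5.85 against 4.03 and 4.16) and fibroblasts (5.77 and 5.49 against 4.27 and 4.61), left of them for apolipoproteins (3.73 and 3.74 against 7.08 and 6.27), and overlap them for lymphocytes and housekeeping genes.

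Part of the genes called in 1 direction lay side by side, though most did not. The number of such runs was not tested against the overall share of calls. Runs of at least 3 neighbours numbered 88 in heart with 312 genes, 14.5% of the genes called in heart that have a position, and 131 in liver with 505 genes, 23.6%. The longest heart runs held 6 genes. One, at chr7:45621811-45694402, includes Fut2, a fucosyltransferase (3.03 ± 0.34), and Mamstr, a coactivator of the muscle factor MEF2 (2.16 ± 0.26). Another, at chr11:101162679-101259551, runs from Plekhh3 to Vps25 and includes Ramp2, a partner of the adrenomedullin receptor of vessels. A run of 5 at chr14:54936176-54994626 holds Myh6, Myh7, the antisense RNA Mhrt and Mir208a. Mir208a lies within Myh6 and Mhrt overlaps Myh7. No source used here says how reads shared by overlapping genes were counted, so these values are not independent.

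The liver runs were the longer ones and followed gene families. The major urinary proteins, Mup, made the longest, 17 genes at chr4:60066469-61782355 with a median of -3.20. It was followed by 13 Cyp2c genes at chr19:39113898-40187286 (-2.26), 10 genes around Serpina1, alpha-1-antitrypsin, at chr12:103728156-104106138 (-3.57), 9 genes around the retinol dehydrogenases at chr10:127759726-128007648 (-2.22) and 8 Ugt2b genes at chr5:86889770-87424203 (-3.26). These families hold near-identical copies, and the value of a single member is uncertain because reads may be shared. Runs of distinct genes were found as well. The apolipoprotein cluster with Apoa1, Apoc3, Apoa4 and Apoa5 at chr9:46012820-46282643 made 6 (median -3.55), its end members Sik3 and Zpr1 being the least different (-1.62 and -0.82). The fetuins, Hrg and the kininogens at chr16:22857845-23082078 made another 6 (-2.88).

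Loci of microRNAs gave few reads, with a median of 3 counts, and 26 of 573 were called in heart and 21 in liver. Both are smaller shares than those over all genes tested, 8.48% in heart and 8.24% in liver. Of the 573, 495 matched a RefSeq sequence. The reads measure the mark over the locus, not the microRNA, and Mir208a shares its position with Myh6. The loci shown carry well-known microRNAs of the heart or the liver, as mature sequences with the seed, bases 2 to 8, in capitals, and no pair of them shares a seed.
mmu-miR-208a-3p: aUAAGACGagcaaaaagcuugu
mmu-miR-192-5p: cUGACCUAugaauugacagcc
mmu-miR-194-5p: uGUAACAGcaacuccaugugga
mmu-miR-148a-3p: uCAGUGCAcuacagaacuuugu
In GRCm38.p6 these lie at chr14:54949072-54949093 (minus strand), chr19:6264857-6264877 and chr19:6264658-6264679 (plus strand) and chr6:51269829-51269850 (minus strand). Mir208a had 23 and 43 counts in heart and 3 and 3 in liver (3.39 ± 0.84, adjusted p = 0.00311). Mir192 had 6 and 17 in heart and 61 and 35 in liver (-1.93 ± 0.59, adjusted p = 0.0196), and Mir194-2, its neighbour, 11 and 5 against 62 and 23 (-2.07 ± 0.65, adjusted p = 0.0237). Mir148a had 17 and 6 in heart and 89 and 58 in liver (-2.56 ± 0.64, adjusted p = 0.00351). The counts of these 4 are low and the standard errors are large. Counts of the organs did not overlap for any of them, but that held for 4424 of the 4505 called genes. Mir133a-2 (3.98) and Mir1a-1 (3.05) were called in heart as well.

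Brain and kidney place the heart and liver values among the organs. The genes counted were chosen for heart and liver not overlapping, which favours an extreme place for either organ, so the shares describe order only. Over all genes tested both heart libraries were above the other 6 for 8.94%, and both liver libraries for 9.6%. Of the 2241 genes called in heart without overlap, 908 had heart above brain and kidney as well, with liver not below both of them (40.5%), 609 had liver below both, with heart not above both (27.2%), 452 had heart above and liver below (20.2%) and 272 had neither (12.1%). Of the 2183 genes called in liver without overlap, 1321 had only liver above brain and kidney (60.5%), 280 had only heart below them (12.8%), 310 had both (14.2%) and 272 had neither (12.5%). Kcnj11 is an example of a gene not particular to heart: brain had 6.40 and 7.29, which reached the heart FFPE value of 7.22. Hnf4a is a gene that kidney carried as well, at 6.43 and 6.21, below liver and above heart.

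Promoters of the most different genes differed in the motifs they hold. The window was 250 bases before to 50 after the first start that RefSeq lists, for 18438 genes tested, of which 189 were called at least 4-fold higher in heart and 449 at least 4-fold higher in liver. These shares are descriptions with no test, motifs were searched on both strands except the TATA box, and they can overlap each other. The HNF1 motif GTTAATNAT was in 5.79% of the liver promoters, 1.06% of the heart promoters and 0.781% of all. The HNF4 motif CAAAGTCCA was in 2.23%, 0.529% and 0.445%, and the C/EBP motif TTGCNNAA in 20.9%, 7.41% and 10.1%, in the same order. These 3 motifs of liver factors were thus more frequent in the liver promoters than in either other set. Some shares rest on few promoters: HNF1 was in 26 liver and 2 heart promoters, HNF4 in 10 and 1, and C/EBP in 94 and 14. Any members of families of near-identical copies counted as separate promoters, and their part in the shares was not tested. The FOXA motif TGTTTAC was in 6.24%, 4.23% and 3.02%.

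Motifs of heart and muscle regulators were compared in the same way. The MEF2 motif TAAAAATA was in 3.7% of heart promoters, 2.23% of liver promoters and 2.1% of all, and the CArG box in 3.7%, 2.45% and 1.58%. Each of these heart shares rests on 7 promoters. The E-box CAGCTG was in 27%, 14.5% and 15.6%. The GATA motif AGATAA was in 14.3% of heart, 16.3% of liver and 9.91% of all promoters, the MCAT motif CATTCC in 18.5%, 18.7% and 13.6%, and TATAAA on the gene's strand in 14.8%, 14.3% and 8.7%, so these 3 shares were close in the heart and liver sets. The ETS motif CCGGAAGT was in 1.06%, 1.11% and 5.22%. Base composition moved with these shares: the median promoter held 7 CpG in the heart set, 4 in the liver set and 13 over all, at a GC content of 55.3%, 50% and 56%, and its part in the motif shares was not tested.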

How the data were processed

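H3K27Ac chromatin immunoprecipitation was sequenced in mouse brain, heart, kidney and liver, Frozen and FFPE, and the heart and liver columns were compared. Bowtie2, featureCounts and limma were used with build mm10, per the submitters' processing notes; no source used here gives their versions, the part of each gene counted or the handling of shared reads. The deposited values are log2 CPM: each returned a whole count within 0.001, as the log2 of the count plus 0.5 over a library size scaled by the authors with factors from 0.749 to 1.04 in the 4 libraries. The log2 values were tested as deposited, and the counts state depth. All 8 columns were matched to a group and 0 were left over. No input column was analysed here.

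Of 27179 genes 235 at 0 throughout were left out and 26944 tested with limma 3.58.1 in R 4.3.3. The model held organ and preservation over 8 libraries, with 3 residual degrees of freedom, a trend of the prior variance on the mean, and Benjamini-Hochberg adjustment over all genes. The prior carried a median of 30.6 degrees of freedom, so small p-values rest largely on a spread shared across genes, not on replication of each gene. Brain and kidney entered so that the spread is estimated over all organs. The script was tested on simulated data: of 200 genes of 26944 changed by 2 on the log2 scale in a simulated heart against liver comparison, 91.5% were recovered. Of 189 genes called there, 6 were unchanged. The changed genes had a mean of at least 10 counts, and the noise was normal with the spread of the fitted model. No other organ or preservation effect was added, and smaller differences were not simulated. Within a preservation there is 1 library a side and no test was made.

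The 43 gene lists, the thresholds and the alternatives were chosen with earlier results of these data known, so no list is independent support. The genes named as the largest differences were the 15 in each direction among those called, in the same direction in both preservations, without overlap and with at least 100 counts over the higher organ, without mitochondrial and unnamed genes; in addition any list member could be named, the members of the 6 longest runs each way, and genes at least 2-fold apart in opposite directions with at least 100 counts over each pair. Positions, promoters and microRNA sequences come from RefSeq tables of GRCm38.p6, in which 25275 identifiers matched; 1275 rows have no symbol. Alternatives were other scalings, filters, weights and spread estimates, and leaving out each library. Values of some genes are not reported here.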

Additional observations from a re-analysis of the deposited data

Results flagged for a closer look

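Genes whose difference had opposite signs in the preservations are given with their counts. Within a preservation there is 1 library a side, so the difference between preservations was not tested. Gm2022 stood at -1.02 in Frozen, lower in heart (35 counts against 89), and at 1.80 in FFPE (80 against 24).

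Among the genes called over both preservations, 4 had opposite signs, of which 3 have a symbol. Prtg, a receptor of the immunoglobulin superfamily, was -2.02 in Frozen (209 counts in heart against 1054 in liver) and 0.0911 in FFPE (326 against 325), so its call toward liver (-0.96 ± 0.31, adjusted p = 0.0264) came with a difference in Frozen only. Methig1 was -4.44 in Frozen (2 against 67) and 0.181 in FFPE (31 against 29). Olfr513, an olfactory receptor, was -0.0909 in Frozen (15 against 20) and 6.15 in FFPE, where 33 counts stood against 0, a value that depends on the 0.5 added to each count.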

How the results depend on the processing

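No paired analysis was possible because the columns carry no replicate number; preservation was the block. Without the trend in the prior variance 2305 genes were called, 1077 in heart and 1228 in liver. With plain total counts 1377 were called in heart, 33.7% of 4091 calls against 50.7%. Leaving out each heart or liver library gave 2323 to 4168 calls, 933 to 2025 in heart and 1280 to 2143 in liver, the fewest without heart Frozen and the fewest in liver without liver Frozen, with the lone library assumed to vary like the others. The other alternatives gave 3243 (no preservation term) to 5060 calls (heart and liver libraries alone). Across alternatives 48.7% to 99.2% of the calls were kept, and 0 of these reversed. A threshold of 1.5-fold in both preservations gave 2465 genes in heart and 2372 in liver, and 4-fold 141 and 381. The causes were not tested. The 30 genes with the largest differences kept direction and call in all 480 results over 16 alternatives, and 57 of 496 list counts moved by over 1.5 times. The 30 genes had been picked for large, called differences in the same data, which favours in advance that they keep both. With a median of 87 to 105 counts and 1 library per organ and preservation, loci of few reads have wide errors. A gene not called is not shown to be alike in both organs. Medians of macrophages, mesothelium, heat shock and mitochondrially encoded genes changed sign between scalings.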

Other observations

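Gene families outside the lists were looked at after their values had been seen, so they describe the table and nothing more. Their counts stand beside 8.48% of all genes tested called in heart and 8.24% in liver. The caveolins and cavins, which shape the small membrane pits of muscle and endothelium, had all 7 members called in heart (median 1.74). Cav3, the muscle caveolin, had 4.99 and 4.71 in heart and 1.25 and 2.23 in liver (3.10 ± 0.45), and Cavin3 differed by 3.26 ± 0.30. The small heat shock proteins had 6 of 10 called in heart and 0 in liver (median 1.59), Hspb7 (3.77), Hspb3 (3.24) and Hspb2 (2.36) among them. Potassium channel subunits had 23 of 93 called in heart and 5 in liver (median 0.31). Kcne1, the small partner of the slow delayed rectifier channel, was called in heart (2.65 ± 0.27).

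In liver, the carboxylesterases, which split ester drugs and lipids, had 13 of 19 called and 0 in heart (median -1.40), with Ces3a at -3.96 ± 0.34. The organic ion transporters of the Slc22a family had 11 of 25 called in liver and 1 in heart (median -0.42). The claudins, which seal tight junctions, were called both ways, 4 of 23 in each organ. Cldn1 had 3.58 and 4.39 in heart and 8.59 and 7.55 in liver (-4.08 ± 0.30), and Cldn3 (-3.64) and Cldn2 (-3.08) were called in liver too, while Cldn5, the claudin of endothelium, was called in heart. Families with few calls were the Hox genes, 0 of 39 in heart and 2 in liver (median 0.05), the cytosolic ribosomal proteins, 1 of 82 and 2, and the olfactory receptors, 10 of 1108 and 29, most of them at low counts. The ribosomal protein called in heart was Rpl3l, a form of heart and skeletal muscle.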
